A study of Mus musculus with 4 samples.

Results

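The cells described here are interferon-response fibroblasts (FB) of the mouse intestine. They were chosen by rule among single cells with at least 500 genes, at least 1000 UMIs (unique molecular identifiers, counted RNA molecules) and at most 10% mitochondrial UMIs. A member had at least 1 UMI of Col1a2, the alpha-2 chain of type I collagen, no UMI of Ptprc, which encodes the leukocyte antigen CD45, and at least 1 UMI for at least 3 of the 6 genes Ifit1, Ifit3, Rsad2, Cxcl9, Ubd and Fam26f. The rule found 189 members among 31097 Col1a2-positive, Ptprc-negative cells (0.608%), out of 32216 cells that passed the filter and 34983 barcodes in all. Of the 189 members, 138 came from the small intestine and 51 from the colon. They were set beside 25703 Col1a2-positive cells that passed the same filter and held none of the 6 genes, called none-cells below; 37 of these none-cells held Ptprc.

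The 4 single-cell RNA-seq libraries held mesenchymal stromal cells (MSC) of the small intestinal and colonic lamina propria (LP), with 2 libraries for each intestine. The mice were untreated female C57BL/6Nrj animals aged 8 to 10 weeks. The libraries held 14341443 to 52269372 UMIs in all and came from 2 independent experiments for each intestine, each with 3 mice that were pooled, so a library is not 1 animal. After the muscularis externa was taken off, live CD45-, Ter119-, CD31-, BP3-, EpCAM-, L1CAM- and Itgb1+ cells were sorted, a gate aimed at leaving out leukocytes, red cells, endothelium, epithelium and glia. Neither a treatment nor an infection was given, and there was no control group without interferon signalling. All values below are given in the order small intestine replicate 1, small intestine replicate 2, colon replicate 1 and colon replicate 2. The libraries of replicate 1 and replicate 2 were written by different software versions and may differ in kit, which cannot be told apart from the replicate number.

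Interferons are secreted antiviral and immune signals. Type I interferons bind the receptor of Ifnar1 and Ifnar2 and act through a factor complex that holds STAT2 and IRF9 and binds the interferon-stimulated response element (ISRE), while interferon gamma, made by T cells and NK cells, binds the receptor of Ifngr1 and Ifngr2 and acts on the gamma-activated site (GAS). Many genes answer to both, and in the intestine of healthy animals a low interferon response is known without infection. Of the 6 genes of the rule, Ifit1 and Ifit3 encode proteins that bind foreign RNA, Rsad2 encodes viperin, an antiviral enzyme, Cxcl9 encodes a chemokine for CXCR3-bearing T cells, and Ubd encodes FAT10, a ubiquitin-like modifier. Fam26f encodes a membrane protein of the calcium homeostasis modulator family. Cxcl9 and Ubd are best known as targets of interferon gamma, and Ifit1, Ifit3 and Rsad2 as targets of type I interferon.

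The upstream sequences of the 6 genes that chose the members, and of Isg15, a ubiquitin-like interferon target outside the rule, are shown because they differ in the ISRE letters they hold. Each is the last 160 bases before the RefSeq transcription start (build GRCm38.p6), written 5′ to 3′ on the gene's own strand, with matches to GAAANNGAAA or its reverse complement TTTCNNTTTC in capitals. Fam26f is listed as Calhm6 in RefSeq.
Ifit1 (chr19:34640729-34640888, plus strand): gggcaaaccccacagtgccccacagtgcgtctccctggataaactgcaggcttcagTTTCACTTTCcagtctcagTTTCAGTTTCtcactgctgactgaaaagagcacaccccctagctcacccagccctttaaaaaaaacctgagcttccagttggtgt
Ifit3 (chr19:34583369-34583528, plus strand): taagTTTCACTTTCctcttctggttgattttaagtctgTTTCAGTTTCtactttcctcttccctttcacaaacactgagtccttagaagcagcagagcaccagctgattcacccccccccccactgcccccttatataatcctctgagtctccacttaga
Rsad2 (chr12:26456453-26456612, minus strand): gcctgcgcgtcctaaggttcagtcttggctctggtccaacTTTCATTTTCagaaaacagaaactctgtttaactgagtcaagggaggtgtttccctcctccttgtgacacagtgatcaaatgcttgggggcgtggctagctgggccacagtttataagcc
Cxcl9 (chr5:92328080-92328239, minus strand): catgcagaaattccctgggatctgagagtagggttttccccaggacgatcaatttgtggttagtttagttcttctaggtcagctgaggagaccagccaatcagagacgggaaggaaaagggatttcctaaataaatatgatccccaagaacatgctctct
Ubd (chr17:37193732-37193891, plus strand): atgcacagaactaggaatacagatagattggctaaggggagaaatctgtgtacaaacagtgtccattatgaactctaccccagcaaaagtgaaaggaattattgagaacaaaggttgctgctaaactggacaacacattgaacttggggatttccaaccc
Fam26f (chr10:34127973-34128132, minus strand): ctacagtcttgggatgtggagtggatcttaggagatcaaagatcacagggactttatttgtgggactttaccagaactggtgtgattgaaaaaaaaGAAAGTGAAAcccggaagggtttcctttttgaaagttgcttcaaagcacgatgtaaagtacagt
Isg15 (chr4:156200819-156200978, minus strand): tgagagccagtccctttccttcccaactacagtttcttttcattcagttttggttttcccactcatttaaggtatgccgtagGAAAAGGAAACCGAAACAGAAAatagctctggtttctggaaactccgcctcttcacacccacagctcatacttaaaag

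Ifit1 held 2 matches that began 104 and 85 bases before the start, and Ifit3 held 2 at 156 and 122 bases. Rsad2 and Fam26f held 1 match each, at 120 and 64 bases, and Isg15 held 3 that overlapped, at 78, 72 and 66 bases. Cxcl9 and Ubd held none in their windows of 250 bases before to 50 bases after the start. None of the 7 windows held the GAS letters TTCNNNGAA, which are their own reverse complement. Over all 32851 RefSeq mouse promoter windows of that length, the ISRE letters were in 3.44% and the GAS letters in 8.30%. A match is a description of letters, and no match says nothing of factor binding. A RefSeq window was found for under 80% of the genes tested below, so no share over those genes is given.

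Ifit3 was the most frequent gene of the rule among members (164 of 189), followed by Ifit1 (144), Rsad2 (97), Cxcl9 (89), Fam26f (73) and Ubd (31). These counts describe the choice of members and are not findings. Of 25 combinations seen, Ifit1 with Ifit3 and Rsad2 alone was the most frequent, in 62 members, followed by Ifit1 with Ifit3 and Cxcl9 in 26. Of the 31097 Col1a2-positive, Ptprc-negative cells, 25666 held none of the 6 genes, 4446 held 1, 796 held 2, 161 held 3, 25 held 4 and 3 held 5.

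In CPM (the UMIs of a gene summed over the cells of a group in a library, scaled so that all UMIs of those cells add up to 1000000), Ifit3 stood at 323, 606, 1081 and 811 and Ifit1 at 188, 432, 468 and 524. Rsad2 stood at 61.4, 225, 110 and 260 CPM. Cxcl9 stood at 1984, 1592, 185 and 260 CPM, Ubd at 94.1, 97.6, 5.78 and 5.41 CPM and Fam26f at 123, 186, 28.9 and 54.1 CPM. As these genes chose the members, their levels are a description, and the intestines are not compared by them. Few cells decided some of these levels: 1 member of small intestine replicate 1 held 280 of the 485 Cxcl9 UMIs there, and in colon replicate 1 single members held 38 of the 81 Ifit1 UMIs and 50 of the 187 Ifit3 UMIs. Ubd rested on 1 UMI in each colonic library.

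Members made up 1.94% (26 of 1337), 0.740% (112 of 15132), 0.745% (16 of 2147) and 0.280% (35 of 12481) of the Col1a2-positive, Ptprc-negative cells. The exact Clopper-Pearson 95% intervals, which cover counting error only, were 1.27 to 2.84%, 0.610 to 0.890%, 0.427 to 1.21% and 0.195 to 0.390%. Within each replicate number the small intestinal share was the higher one, but small intestine replicate 2 and colon replicate 1 did not differ beyond their intervals, so the intestines overlapped. The rule counts detected genes and therefore moves with depth: the median member held 9861.5, 3474, 9832.5 and 4935 UMIs against 7803, 2740, 8845.5 and 3876 in the median none-cell. After each cell was thinned to 2500 UMIs, which left out 12.4%, 38.7%, 6.21% and 18.5% of the cells that passed the filter, the shares were 0.425% (5 of 1177), 0.579% (54 of 9334), 0.153% (3 of 1958) and 0.108% (11 of 10195). Both small intestinal shares then lay above both colonic ones. The intervals overlapped for replicate 1 (0.138 to 0.989% against 0.0316 to 0.447%) and did not for replicate 2 (0.435 to 0.754% against 0.0539 to 0.193%). Thinned to 1000 UMIs, the shares were 0% (0 of 1186), 0.129% (19 of 14687), 0.109% (2 of 1840) and 0.0260% (3 of 11558). There small intestine replicate 1 stood below both colonic libraries, with an interval of 0 to 0.311% that covered their shares. The order of the intestines thus depended on the depth. With 2 libraries against 2, no exact two-sided permutation test can give a p below 0.33, so no test was made.

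**Figure D1:**
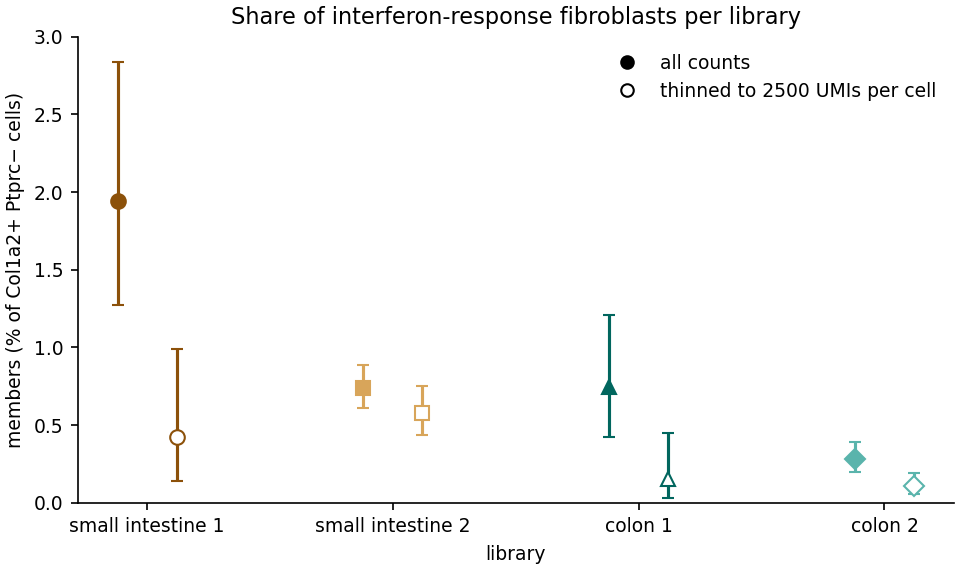
Members as a percentage of Col1a2-positive, Ptprc-negative cells in each library (y axis), with all counts (filled) and after thinning to 2500 UMIs per cell (open). Bars are exact 95% binomial intervals. With all counts the small intestine replicate 1 library stands highest at 1.94%. After thinning to 2500 UMIs both small intestinal shares lie above both colonic ones. This order did not hold at 1000 UMIs per cell, where small intestine replicate 1 had 0 members among 1186 cells, below both colonic libraries.

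Free RNA in a droplet can give a UMI to a cell that does not express a gene, so the same count of 3 of the 6 genes was read in other cells of the sort, marked by at least 2 genes of a marker list. None of 58 cells with plasma cell markers and no Col1a2 in small intestine replicate 1, which held a median of 27042.5 UMIs, reached 3 of the 6 genes, which allows a share of up to 5.17%. None of 173 and 169 cells with markers of interstitial cells of Cajal in the colonic libraries (median 10751 and 4422 UMIs), of which 97.1% and 89.9% held Col1a2, did so either, which allows up to 1.73% and 1.78%. Cells with endothelial markers and no Col1a2 reached 3 of the 6 in 21 of 344 (6.10%) in small intestine replicate 1 and in 17 of 227 (7.49%) in colon replicate 1 (median 4434.5 and 5053 UMIs), above the shares of members in those libraries, and 42.7% of the latter held Rsad2. Small intestine replicate 2 had 1 such cell, too few for a share. Cells with smooth muscle and pericyte markers and no Col1a2 did so in 2 of 49, 0 of 44, 1 of 38 and 2 of 117. Ifit1, Ifit3 and Rsad2 were therefore not particular to FB. Of the 344 and 227 cells with endothelial markers, Cxcl9 was detected in 18 and 0, Fam26f in 2 and 0 and Ubd in 0 and 0.

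The label of the cells was checked against FB markers. Dcn, the matrix proteoglycan decorin, was detected in 186 of 189 members, and Col3a1 in 26 of 26, 111 of 112, 16 of 16 and 35 of 35. Among none-cells Dcn was detected in 96.9%, 99.7%, 90.4% and 92.1% and Col3a1 in 98.3%, 99.4%, 98.8% and 99.8%. Col1a2 itself was detected in 73.3%, 99.3%, 88.6% and 98.5% of all cells that passed the filter. Pdgfra, the receptor by which the FB subsets are told apart, was detected in 19, 47, 9 and 17 members. These were 73.1%, 42.0%, 56.25% and 48.6% of members, against 67.7%, 48.3%, 65.3% and 51.1% of none-cells. In 90 members Col1a2 made up at least as large a share of the UMIs as in the median none-cell of the library. The endothelial genes Pecam1 (CD31, a marker used to leave cells out of the sort) or Cdh5 (VE-cadherin) were detected in 0, 2, 2 and 4 members, or 0%, 1.79%, 12.5% and 11.4%, against 0.957%, 0.146%, 0.677% and 0.296% of none-cells. The 6 endothelial markers summed to 4.09, 23.2, 335 and 465 CPM in members and to 13.3, 2.88, 17.0 and 3.62 CPM in none-cells. Pecam1, Cdh5, Kdr and Flt1 of that list were all detected in members of both colonic libraries. Cldn5 had no UMI in members of any library, nor in none-cells of both small intestinal libraries and colon replicate 2. At least 2 of 8 smooth muscle and pericyte markers were detected in 10, 15, 6 and 8 members. These were 38.5%, 13.4%, 37.5% and 22.9% of members, against 32.6%, 12.3%, 29.6% and 12.3% of none-cells. Matrix genes were thus detected in nearly all members, as in none-cells, which does not set the members apart as FB. Pecam1 or Cdh5 was detected in 8 members, 6 of them colonic. Results that move with these genes are given with and without those cells. Members with other endothelial genes alone, as with the 1 UMI of Flt1 in small intestine replicate 1, stayed in. Barcodes were shared between libraries by at most 69 cells (0.510% of the smaller library), for replicate 2 of both intestines.

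Around the threshold of the rule, cells with more of the 6 genes held more of the interferon genes outside it. The interferon-induced GTPases (18 genes of guanylate-binding proteins and immunity-related GTPases, which attack vacuoles of intracellular pathogens) summed to 892, 1177, 1796 and 2829 CPM in small intestine replicate 1 cells with none, 1, 2 and 3 of the 6 genes. The same steps gave 885, 1296, 2182 and 3692 CPM in small intestine replicate 2, 282, 524, 1045 and 2466 CPM in colon replicate 1, and 360, 711, 1400 and 2027 CPM in colon replicate 2. Each step was higher than the last in every library. The endothelial markers moved with these steps in the colon, at 17.1, 44.2, 143 and 370 CPM in replicate 1 and at 3.46, 5.09, 138 and 174 CPM in replicate 2. In the small intestine they stood at 13.3, 56.8, 78.8 and 0 CPM in replicate 1 and at 2.83, 1.51, 2.05 and 27.4 CPM in replicate 2. Without cells that held Pecam1 or Cdh5 the GTPases stood at 281, 521, 929 and 2687 CPM in colon replicate 1 and at 359.6, 708, 1347 and 1782 CPM in colon replicate 2, and still rose at each step. The 43 type I interferon-induced genes rose from 11222 to 18315 CPM in small intestine replicate 1 and from 6073 to 12004 CPM in colon replicate 2 between none and 3 genes. Cells just outside the rule, with 2 of the 6 genes, thus lay between none-cells and members.

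**Figure D2:**
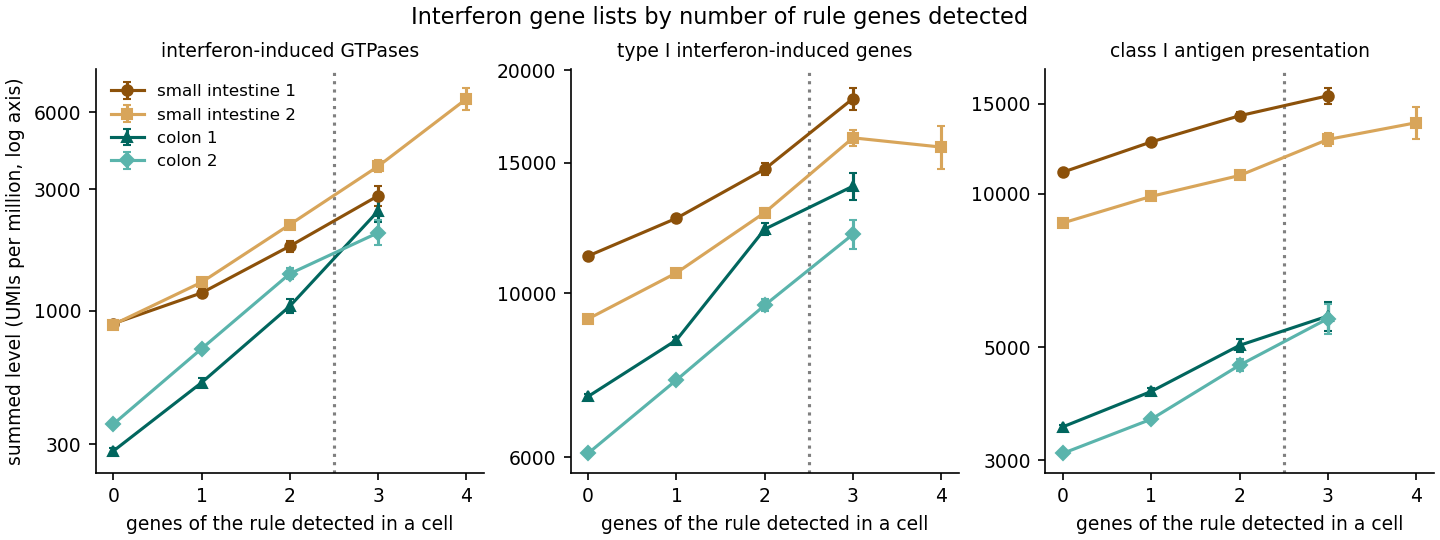
Summed level of the GTPases, the type I interferon-induced genes and the class I antigen presentation genes (y axes, CPM, log axes) by the number of rule genes detected in a cell (x axis), for each library with at least 10 cells at that step. Bars are exact 95% Poisson intervals and the dotted line marks the threshold of 3 genes. GTPases in cells with 3 genes lie between 2027 and 3692 CPM, and in cells with none between 282 and 892.

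To ask which genes came with the 6 genes of the rule, UMIs were summed over members and over none-cells of each library and compared with library as a block (edgeR's quasi-likelihood test with Benjamini-Hochberg adjustment over all genes tested). A gene was called where the adjusted p was below 0.05 and the log2 fold change larger than 1 in size. Apart from the 6 genes, 11134 genes were tested and 180 (1.62%) were called, 152 higher in members (1.37%) and 28 lower (0.251%). In 150 of the 180 the CPM differed in the same direction in all 4 libraries, and in 168 when 0.5 UMI was added to each count. The median gene stood at a log2 fold change of -0.08. Genes that vary with the 6 across cells enter through the choice of members, so these calls describe a state that cells share and not an effect of a treatment. Without library as a block, 33 genes were called in place of 186, both counted with the 6 genes in the table.

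The type I interferon-induced genes were the largest group: 31 of 38 tested were higher in members and none lower, with a median log2 fold change of 2.15. Mx1, an antiviral dynamin-like GTPase (chromosome 16, 97447035 to 97462907, minus strand, GENCODE vM21), stood at 24.5, 60.4, 17.3 and 64.9 CPM in members and at 1.28, 0.741, 0.829 and 0.534 CPM in none-cells. Members lay above none-cells in every library, by 52.1-fold in the fit (log2 fold change 5.70, SE 0.545, edgeR adjusted p = 4.84e-20), on 47 UMIs in all members. Ifit2, which binds RNA with its relatives Ifit1 and Ifit3, stood at 28.6, 83.6, 63.6 and 162 CPM in members and at 7.70, 7.12, 15.5 and 14.3 CPM in none-cells. The groups did not overlap (log2 fold change 2.90, SE 0.283, edgeR adjusted p = 2.53e-18). Usp18, the protease that takes ISG15 off proteins and dampens the receptor, stood at 65.5, 97.6, 127 and 81.1 CPM in members against 10.1, 10.3, 11.5 and 9.33 CPM, a nearly constant level in none-cells (log2 fold change 3.1, SE 0.270, edgeR adjusted p = 7.92e-24).

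Ifi44, an interferon-induced protein of the cytoplasm, was higher by a log2 fold change of 3.62 (SE 0.544) and Slfn2, a Schlafen family member, by 3.04 (SE 0.510). Ifit3b, at 5.29 (SE 0.369), is a near copy of Ifit3, so reads may have been split between them and its value is uncertain; the same holds for the Oas, Oasl and Schlafen copies. Bst2, or tetherin, which holds budding virus at the cell surface, was higher with 720, 616, 642 and 443 CPM in members against 285, 248, 154 and 129 CPM (log2 fold change 1.54, SE 0.132). The 4 most abundant genes of the list, Ifitm3, Ifi27l2a, Ifitm1 and Ifitm2, were not called. Ifitm3, which blocks virus entry, stood at 5299, 5026, 3797 and 4114 CPM in members against 3505, 3141, 2162 and 2147 CPM, a log2 fold change of 0.69 that passed the p threshold (edgeR adjusted p = 6.36e-09) but not the fold threshold. Ifi27l2a gave the same log2 fold change of 0.69.

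Isg15 was not called, although members stood above none-cells in all libraries, at 974, 395, 838 and 303 CPM against 210, 38.8, 44.6 and 18.5 CPM. Its log2 fold change was 3.33 (SE 0.508, edgeR adjusted p = 0.127), and its ratio of members to none-cells ranged from 4.63 in small intestine replicate 1 to 18.8 in colon replicate 1. It was called by DESeq2 and when small intestine replicate 1 or colon replicate 1 was left out, with log2 fold changes of 3.47, 3.81 and 3.04.

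**Figure D3:**
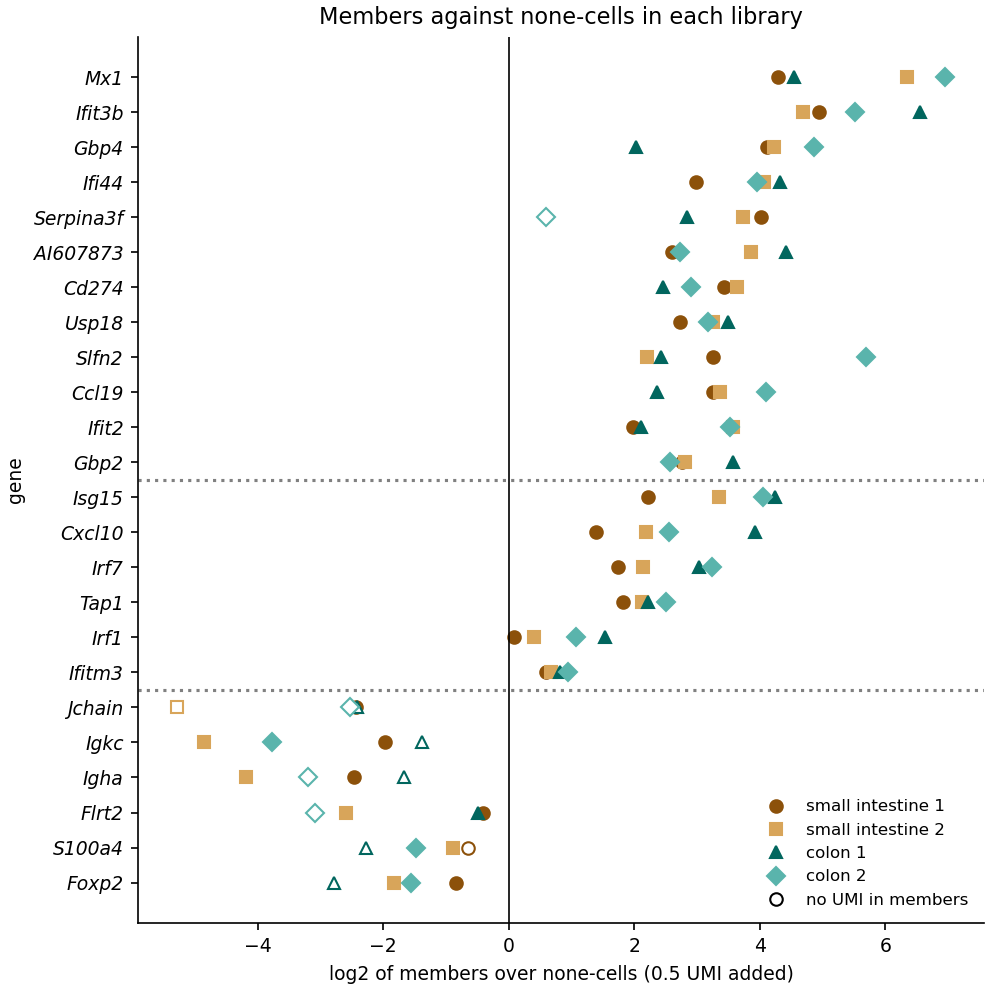
Members against none-cells for named genes (y axis) in each library, as the log2 ratio of CPM with 0.5 UMI added (x axis); open symbols mark no UMI in members. The top block holds the 12 genes with the largest called increase, the middle block 6 other interferon genes, and the bottom block called genes that were lower. The filled points of the top block lie right of 0. The open point there, Serpina3f in colon replicate 2, had no UMI in members and lies right of 0 only through the added 0.5 UMI.

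Of 17 GTPases tested, 15 were higher in members and none lower, with a median log2 fold change of 2.43. Gbp2, a guanylate-binding protein, stood at 741, 748, 647 and 287 CPM in members and at 110, 107, 54.6 and 48.7 CPM in none-cells. The groups were apart in every library (log2 fold change 2.86, SE 0.141, edgeR adjusted p = 5.24e-56). Gbp4 stood at 127, 167, 17.3 and 97.3 CPM in members against 7.41, 8.98, 4.91 and 3.43 CPM (log2 fold change 3.98, SE 0.293), with the lowest member level in colon replicate 1. Gbp7 and Igtp, the latter an immunity-related GTPase, were higher by 2.27 (SE 0.152) and 2.48 (SE 0.272). Iigp1, the most abundant GTPase of the list, was not called (log2 fold change 2.43, SE 0.511, edgeR adjusted p = 0.253), but was called by DESeq2 and without small intestine replicate 1 (2.54 and 2.81). Tgtp1 and Tgtp2 are near copies and their values are uncertain.

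Among 19 other genes known from interferon gamma, 5 were higher in members (Apol9a, Cd274, Batf2, Serpina3g and Ly6a) and none lower, with a median log2 fold change of 0.88. Cd274 encodes PD-L1, the ligand that restrains T cells, and stood at 49.1, 74.3, 17.3 and 27.0 CPM in members against 4.70, 6.10, 3.66 and 3.97 CPM. Members were higher in all libraries (log2 fold change 3.16, SE 0.379, edgeR adjusted p = 3.19e-13). Ly6a, which encodes the surface antigen SCA-1, stood at 2410, 2138, 2063 and 1746 CPM against 1114, 743, 956 and 783 CPM (log2 fold change 1.17, SE 0.111). Vcam1 and Icam1, which hold leukocytes, had log2 fold changes of 0.80 and 0.53, with edgeR adjusted p = 6.48e-05 and 0.00914, below the fold threshold. Apol9a has a near copy and is uncertain. Outside the lists, the serpin Serpina3f stood at 77.7, 62.7, 5.78 and 0 CPM in members against 4.85, 4.79, 1.17 and 1.79 CPM (log2 fold change 3.33, SE 0.477), and AI607873, an interferon-inducible p200 family gene, at 28.6, 39.5, 28.9 and 27.0 CPM against 4.99, 2.79, 1.45 and 4.50 CPM (log2 fold change 3.24, SE 0.469).

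Of the genes of class I antigen presentation, those called supply peptides or activate the pathway. Of 22 genes tested, 22 had a positive log2 fold change (median 0.94) and 6 were called higher: the transporter subunits Tap1 and Tap2, which carry peptides into the endoplasmic reticulum, the immunoproteasome subunits Psmb8, Psmb9 and Psmb10, and Nlrc5, the activator of class I genes. Tap1 stood at 237, 339, 116 and 173 CPM in members against 68.1, 78.0, 25.4 and 30.9 CPM (log2 fold change 2.06, SE 0.159, edgeR adjusted p = 3.61e-29). Psmb9 stood at 282, 311, 144 and 114 CPM against 100, 96.5, 43.4 and 33.6 CPM (log2 fold change 1.59, SE 0.157). The class I heavy chain H2-K1 stood at 3576, 2981, 618 and 843 CPM against 2441, 2117, 491 and 473 CPM, a log2 fold change of 0.49 (edgeR adjusted p = 0.000939) below the fold threshold, and B2m, the light chain, gave 0.44 and H2-D1 0.38. The none-cells of the small intestine held more H2-K1 than the members of the colon.

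Of 6 class II genes tested, none was higher, and Cd74, the invariant chain, was lower (log2 fold change -1.51, SE 0.405, edgeR adjusted p = 0.0105), with 11 UMIs in all members. The class II list summed to 36.8, 39.5, 80.9 and 27.0 CPM in members against 119, 33.2, 112 and 48.9 CPM in none-cells. Below the threshold of the rule, with none, 1 and 2 of the 6 genes, the class II sum rose at each step in every library but colon replicate 1. It stood at 95.7, 166 and 260 CPM in small intestine replicate 1 and at 32.8, 45.8 and 47.1 CPM in replicate 2. In colon replicate 1 it stood at 100.5, 70.3 and 75.6 CPM and in replicate 2 at 42.4, 46.6 and 84.3 CPM. Members had to lack Ptprc and none-cells did not, and without the Ptprc-positive none-cells the sum in small intestine replicate 1 was 95.7 in place of 119 CPM. Ciita, the class II activator, had no UMI in members.

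Of the interferon pathway itself, no ligand was seen in members: all genes of the ligand list had no UMI there in any library, and in none-cells they summed to 0.570, 0.313, 0.484 and 0.139 CPM. The receptor chains were detected and none was called. Ifnar1 stood at 28.6, 27.9, 40.5 and 32.4 CPM in members against 31.9, 35.6, 33.1 and 28.1 CPM in none-cells (log2 fold change -0.12, SE 0.285), a difference within the spread. Ifnar2, Ifngr1 and Ifngr2 had log2 fold changes of 0.20 (SE 0.152), 0.13 (SE 0.169) and 0.58 (SE 0.243), with edgeR adjusted p = 0.743, 0.914 and 0.282. Ifnlr1, the receptor of type III interferon, had no UMI in members.

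Of the transcription factors downstream of the receptors, Irf7, Stat2 and Irf9 were called higher. Irf7, which amplifies type I interferon, stood at 131, 109, 179 and 184 CPM in members against 39.8, 24.96, 22.3 and 19.8 CPM in none-cells, with no overlap (log2 fold change 2.42, SE 0.200). Stat2 and Irf9, which act together downstream of the type I receptor, were higher by 1.43 (SE 0.233) and 1.26 (SE 0.197). Irf1 and the feedback inhibitor Socs1 were not called, with log2 fold changes of 0.70 (edgeR adjusted p = 0.492) and 0.77 (edgeR adjusted p = 0.305), and Jak1, the shared kinase, stood at 0.03.

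Of 12 nucleic acid sensors tested, 9 were higher in members and none lower, with a median log2 fold change of 1.6. Zbp1, a sensor of Z-form nucleic acids, stood at 131, 132, 86.7 and 59.5 CPM in members against 23.9, 24.9, 10.2 and 10.9 CPM, with no overlap (log2 fold change 2.49, SE 0.223, edgeR adjusted p = 1.1e-22). Ifih1 (MDA5), a cytosolic sensor of double-stranded RNA, stood at 77.7, 128, 133 and 162 CPM against 42.1, 48.3, 27.4 and 25.8 CPM (log2 fold change 1.71, SE 0.213). Ddx58 (RIG-I), Dhx58 (LGP2), Tlr3 and the p200 genes Ifi203, Ifi204, Ifi205 and Mndal were the other genes of the list that were called.

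Of 15 chemokines tested, 3 were called higher, Ccl19, Cxcl5 and Ccl2, and none lower (median log2 fold change 0.53). Cxcl10, a ligand of CXCR3 like Cxcl9, was the highest interferon chemokine in members at 2230, 5177, 2948 and 3990 CPM, and stood at 849, 1138, 195 and 682 CPM in none-cells. Members were above none-cells in all libraries, but the ratio ranged from 2.63 to 15.1 and the call was not made (log2 fold change 2.44, SE 0.546, edgeR adjusted p = 0.279), although it was by DESeq2 and without colon replicate 1 (2.51 and 2.01). In small intestine replicate 1 few members carried the level. The 4 members there with more of Cxcl9, Ubd and Fam26f detected than of Ifit1, Ifit3 and Rsad2 held 299 Cxcl10 UMIs (7983 CPM). The 19 with fewer held 48 (261 CPM), below none-cells. Ccl2, which draws monocytes, stood at 1841, 1173, 283 and 341 CPM against 689, 494, 121 and 255 CPM (log2 fold change 1.05, SE 0.127, edgeR adjusted p = 1.04e-12). Ccl19, a ligand of CCR7, was higher by 2.99 (SE 0.423) but held 46 of its 55 member UMIs in small intestine replicate 1, and was not called without that library. Cxcl12, which holds progenitors and plasma cells, stood at a log2 fold change of -0.02.

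Few genes of FB identity were called. None of 17 matrix genes was called (median log2 fold change -0.22, 4 positive), with Dcn at -0.52 (SE 0.0940) and edgeR adjusted p = 5.74e-06, below the fold threshold, and Col1a1 at -0.30. None of 21 immediate early and stress genes was called (median -0.06), nor any of the Fgfr2 or the Igfbp5 and CD90 FB genes (3 and 4 tested). Of the 7 genes of PDGFRa-high FB, Bmp3, a bone morphogenetic protein, was higher (log2 fold change 1.12, SE 0.278, edgeR adjusted p = 0.00513) but lower in colon replicate 2, and of 6 genes of CD81+ FB, none of which had a positive value (median -0.64), Pi16, which marks adventitial FB, was lower (-1.52, SE 0.313). Of 8 smooth muscle and pericyte genes tested, 4 had a positive value (median 0.30, range -1.85 to 1.47). Notch3 and Kcnj8, genes of pericytes, were higher by 1.47 (SE 0.432) and 1.06 (SE 0.195), although Notch3 had no UMI in the 112 members of small intestine replicate 2, and Actg2, a smooth muscle actin, was lower (-1.52, SE 0.211). Of the cell cycle genes 4 were tested, and Stmn1 was called (1.19, SE 0.348). None of 5 immune markers tested was called.

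At least 2 genes of the CD81+ FB list were detected in 17, 79, 12 and 19 members (65.4%, 70.5%, 75% and 54.3%), against 79.5%, 69.8%, 60.2% and 58.5% of none-cells. At least 2 of the PDGFRa-high list were detected in 10, 23, 9 and 13 (38.5%, 20.5%, 56.25% and 37.1%), against 18.4%, 11.5%, 53.6% and 35.5%. Members were therefore found among cells that met either count. The counts do not mark separate types, as some of the 16 members of colon replicate 1 met both. Among cells that met the PDGFRa-high count, members differed from none-cells in 63 genes (counts of genes here include the 6) and 13 of 14 GTPases and 11 of 30 type I interferon-induced genes tested were higher. Colon replicate 1, with 9 such members, was under the minimum of 10 cells and did not enter. Among cells that met the CD81 count, 164 genes were called and 14 of 16 GTPases and 29 of 37 type I interferon-induced genes tested were higher. GTPases were thus higher in members that met either count. In the 90 members with Col1a2 at or above the none-cell median, 108 genes were called and 15 of 16 GTPases tested were higher. Without the 8 members that held Pecam1 or Cdh5 and the none-cells that did, 180 genes were called, 16 of 17 GTPases and 28 of 36 type I interferon-induced genes tested being higher.

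Among the 28 genes that were lower were 3 of plasma cells, Igkc, Jchain and Igha. Igkc, the kappa light chain constant region, stood at 24.5, 11.6, 0 and 5.41 CPM in members and at 104, 372, 7.46 and 110 CPM in none-cells (log2 fold change -4.04, SE 0.310, edgeR adjusted p = 1.85e-27). Jchain, which joins secreted antibody, had 2 UMIs in all members, and none-cells held 14.9 times its share of UMIs (95% counting interval 4.13 to 123). Igha, the IgA heavy chain, was lower by a log2 fold change of -3.36. When cells with at least 2 markers of another cell type were left out, Igha stood at -0.56 and Jchain at -1.92, against -4.33 before, and neither was called. Plasma markers summed to 12.3, 0, 0 and 0 CPM in members against 56.9, 48.0, 16.4 and 17.1 CPM, and their part in the result was not tested.

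Others of the genes that were lower rest on few UMIs. Foxp2, a transcription factor, stood at 16.4, 11.6, 0 and 10.8 CPM in members against 32.8, 45.2, 19.97 and 39.6 CPM (log2 fold change -1.85, SE 0.383, edgeR adjusted p = 0.000167). Flrt2, a guidance and adhesion protein, and S100a4, a calcium-binding protein, were lower by -2.04 and -1.93 on 5 UMIs each in members, and both calls were lost with DESeq2. 1810010H24Rik and Rtkn had no UMI in members, at least 3.33-fold and 2.34-fold lower than in none-cells when 3 counts over all members are taken as the floor, and the call of Rtkn was lost without any 1 library.

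The 6 genes fall into 3 best known from type I interferon (Ifit1, Ifit3 and Rsad2) and 3 others (Cxcl9, Ubd and Fam26f). Members with more of the first detected are called Ifit-led and members with more of the second Cxcl9-led. Ifit-led members numbered 19, 73, 15 and 32 (73.1%, 65.2%, 93.8% and 91.4% of members), Cxcl9-led members 4, 35, 1 and 3, and 3, 4, 0 and 0 held equal numbers. Genes of both arms were detected in 119 of the 189 members, so the arms were not exclusive. These shares rest on the 6 genes that chose the members and are given as a description, with no comparison between the intestines.

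Small intestine replicate 2 alone had at least 10 members of each kind, so the planned fit could not be made, and the values there compare the cells of 1 library with no replicate check. In this library the GTPases summed to 3245 CPM in Ifit-led and 6417 CPM in Cxcl9-led members, a log2 ratio of -0.98 (95% counting interval -1.12 to -0.85). Class I genes stood at 11196 and 17664 CPM (log2 ratio -0.66) and chemokines other than Cxcl9 at 9264 and 22164 CPM (-1.26). The type I interferon-induced genes stood at 15830 and 17993 CPM (-0.18), the immediate early and stress genes at 38869 and 35343 CPM (0.14), and matrix genes did not differ beyond counting error, at 46280 and 45226 CPM (0.03, interval -0.01 to 0.08). The 4 Cxcl9-led members of small intestine replicate 1 also stood higher in GTPases (8170 against 2159 CPM), while the 3 of colon replicate 2 stood lower (1070 against 3046 CPM). The type I log2 ratio was -0.51 in small intestine replicate 1 and 0.28 and 0.66 in the colonic libraries, and that of class I was -0.88, -0.53 and 0.32. The type I ratio thus changed sign in both colonic libraries, with 1 and 3 Cxcl9-led members, and the class I ratio in colon replicate 2.

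With a minimum of 1 cell per library, chosen after the data were seen, 7 of 2266 genes outside the rule (0.309%) were called. Vcam1, Cxcl1, Ifi47, Tnip1, Nfkbia and Serpina3g were lower in Ifit-led members, and Hspb1, a small heat shock protein, was higher (log2 fold change 3.5, SE 0.591). Nfkbia, the inhibitor of NF-kappaB that NF-kappaB itself induces, stood at 876, 1482, 2061 and 1711 CPM in Ifit-led and at 3498, 2960, 4039 and 3253 CPM in Cxcl9-led members. All 4 Cxcl9-led levels lay above all Ifit-led ones (log2 fold change -1.13, SE 0.247, edgeR adjusted p = 0.0374). Vcam1 stood at 120, 267, 87.4 and 123 CPM against 908, 722, 233 and 312 CPM (-1.79, SE 0.367, edgeR adjusted p = 0.0237). Serpina3g gave -2.72 (SE 0.393). Colonic values rest on 1 and 3 Cxcl9-led cells, and without library as a block no gene was called by edgeR, with 101 genes at an unadjusted p under 0.05.

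**Figure D4:**
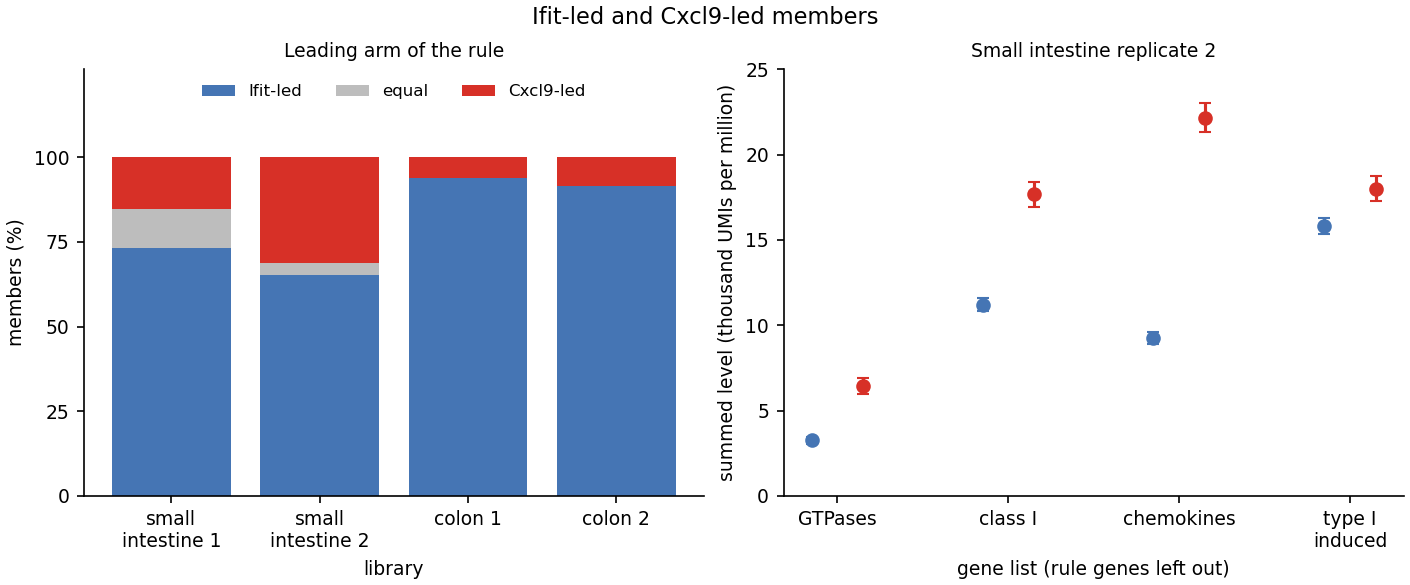
Left, percentage of members (y axis) that were Ifit-led, equal or Cxcl9-led in each library. Right, summed level (y axis, 1000 CPM) of 4 gene lists in Ifit-led (blue) and Cxcl9-led (red) members of small intestine replicate 2, with exact 95% Poisson intervals. The GTPases stand at 3245 and 6417 CPM and the type I interferon-induced genes at 15830 and 17993.

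To compare the intestines, colonic members were set against small intestinal members, 2 libraries against 2, with calls at an adjusted p below 0.05 and a log2 fold change larger than 1.5 in size. Of 3542 genes tested, none was called by edgeR (0%), with a smallest adjusted p of 0.0685, 297 genes at an unadjusted p under 0.05, and 36 called by DESeq2. With the replicate number, which goes with the software version, as a block, 141 genes were called, and 63 to 92 without 1 library, so the count of 0 depends on the fit. All 19 class I genes tested were on the lower side in colon, with a median log2 fold change of -0.72 against -0.01 over all genes tested. B2m in members stood at 2958, 2289, 815 and 730 CPM, with both small intestinal libraries above both colonic ones (log2 fold change -1.75, edgeR adjusted p = 0.125). Of 20 immediate early and stress genes, 19 were on the higher side in colon (median 1.05). Of 27 type I interferon-induced genes, 11 were on the higher side (median -0.04), and of 14 GTPases 2 (median -0.62).

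In none-cells, 2 of 23 class I genes tested, H2-Q6 and H2-Q7, were called lower in colon, and all 23 had a negative log2 fold change (median -1.07). Of 18 GTPases none was called and all 18 had a negative value (median -1.41). Of 13975 genes 53 were called (0.379%), 25 higher in colon (0.179%) and 28 lower (0.2%). The count of 53 depends on the fit, and rose when libraries of the same number, which share a software version, were treated as pairs. Whether GTPases were called in that fit is not given here. GTPases summed to 890, 884, 283 and 360 CPM in none-cells and to 3498, 4275, 2456 and 2806 CPM in members. Both small intestinal levels lay above both colonic levels in either group of cells, while the ratio of members to none-cells was the larger one in the colon.

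Whether the step from none-cells to members differed between the intestines was tested by the interaction of cell group and intestine. Of 12070 genes tested, 50 were called (0.414%), 46 with a larger step in colon (0.381%) and 4 with a smaller one (0.0331%). Among them were the interferon genes Iigp1, Isg15, Irf7, Irf1, Ifih1, Irgm1, Slfn5 and Socs1, all with a larger step in colon. They were few of their lists, with 2 called of 40 type I interferon-induced genes tested, 2 of 18 GTPases and 1 of 13 sensors, and no gene was called among 23 of class I antigen presentation or 22 other interferon gamma-induced genes. Iigp1, an immunity-related GTPase, stood at 888, 1208, 486 and 1173 CPM in members and at 323, 313, 47.3 and 113 CPM in none-cells. Its members overlapped between the intestines and its none-cells did not, and the ratio was 2.75, 3.86, 10.3 and 10.3 (log2 difference 1.69, SE 0.239, edgeR adjusted p = 2.21e-08). Irf1 stood at 675, 706, 1052 and 1222 CPM in members and at 642, 536, 366 and 582 CPM in none-cells (log2 difference 1.09, SE 0.234, edgeR adjusted p = 0.0023), with hardly any step in small intestine replicate 1. Isg15 gave a log2 difference of 1.43 (SE 0.250, edgeR adjusted p = 2.43e-05), which fell to 0.69 and was not called without small intestine replicate 1.

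Among the genes with the largest differences in this test were endothelial ones. Kdr (VEGF receptor 2) had no UMI in small intestinal members and stood at 69.4 and 124 CPM in colonic ones, against 2.28, 0.342, 4.70 and 0.580 CPM in none-cells. Grrp1 had 0, 0, 150 and 124 CPM in members. The prostaglandin transporter gene Slco2a1 stood at 0, 2.32, 75.1 and 157 CPM in members against 3.85, 2.79, 1.87 and 0.882 CPM in none-cells. Esam, an endothelial and pericyte adhesion molecule, fell from a log2 difference of 2.81 to 0.38 without the cells that held Pecam1 or Cdh5, and Cd24a turned from 2.71 to -1.37. Without these cells Kdr, Grrp1 and Slco2a1 did not reach the count minimum for the test and 20 genes were called in all, Iigp1 and Isg15 among them, and Irf1, at 0.99, was not. The part of endothelial cells or doublets in the other calls was not tested. Of the 4 genes called with a smaller step in colon, 3 were Rbms3 (log2 difference -1.78, SE 0.433), F3 (-1.28, SE 0.310), tissue factor, and Cnn2 (-1.13, SE 0.302). The count is sensitive to the small intestine replicate 1 library, without which 2 genes were called, Iigp1 and Rgs16, the latter named here for the count alone.

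**Figure D5:**
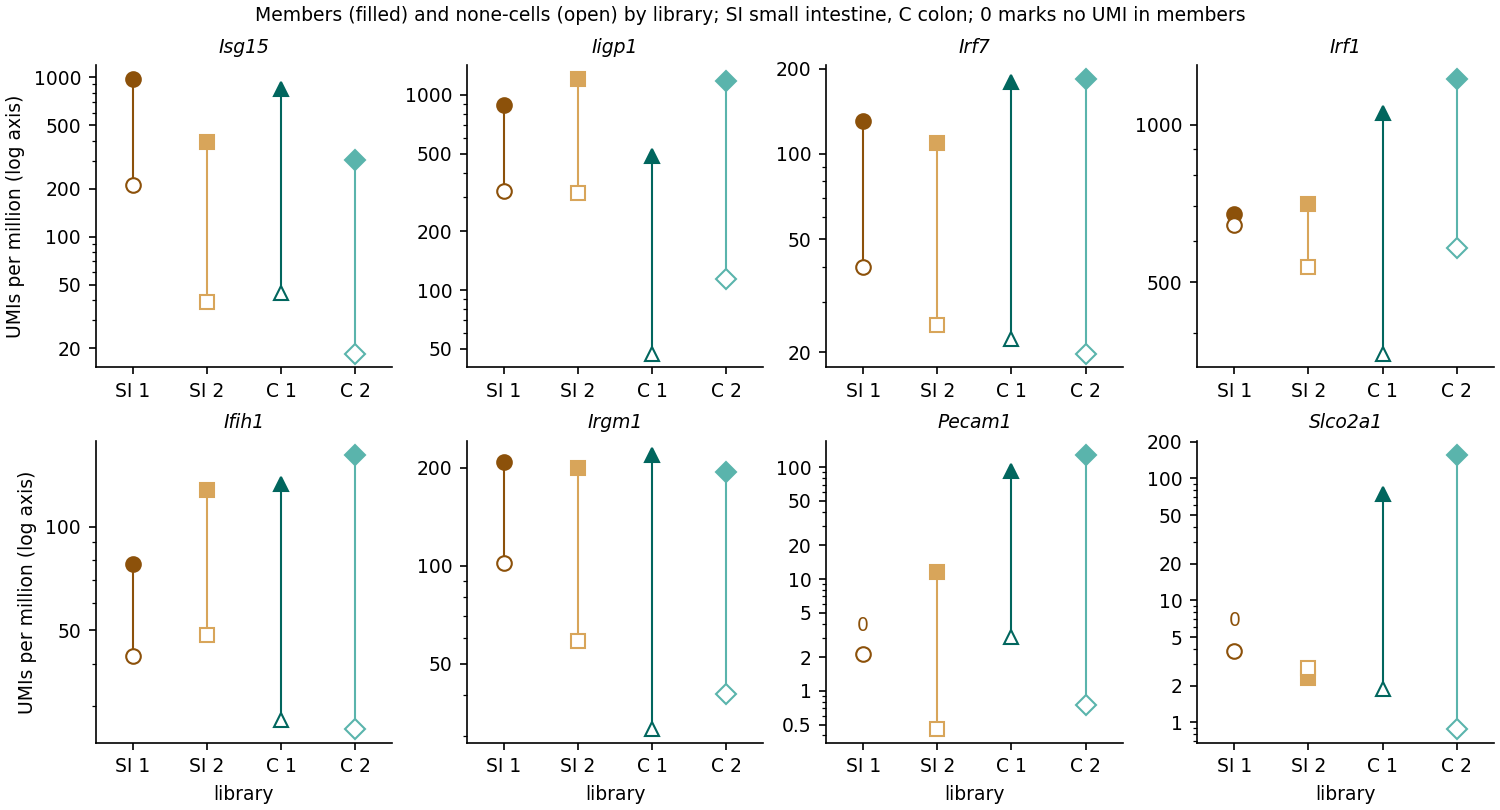
Level in members (filled) and none-cells (open) of each library (y axes, CPM, log axes) for 6 interferon genes and for the endothelial gene Pecam1 and Slco2a1; 0 marks no UMI in members. Iigp1 lies at 486 to 1208 in members of all libraries, but at 313 and 323 in small intestinal and 47.3 and 113 in colonic none-cells.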

How the data were processed

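Single-cell libraries of sorted MSC were deposited by the authors as filtered matrices of UMI counts, 1 per library, with 28692 gene rows, made with Cell Ranger against mm10. File headers give version 3.0.2 for replicate 1 and 3.1.0 for replicate 2, and the submitters' processing notes name Cell Ranger 3.0.2 and Seurat 3. The sequencing kit of each library is not given in the sources used here. No values were normalised before deposit. Libraries held 14341443, 45640122, 22076000 and 52269372 UMIs, and members 244405, 430402, 173012 and 184964, so low genes rest on few counts. Intervals and floors cover counting error only.

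Cells were kept at 500 genes, 1000 UMIs and up to 10% mitochondrial UMIs. Counts were summed per library and group of cells, with at least 10 cells, and fitted with edgeR 4.0.16 in R 4.3.3 (filterByExpr, TMM, quasi-likelihood, robust) with library as a block for comparisons of cells. DESeq2 1.42.0 was an alternative. As each library pools mice, p-values measure the spread between these libraries. Thinning, stricter or looser rules, gates, doublet scores (scanpy 1.11.5) and leaving out each library were also tried. The doublet caller marked 0.600%, 0.00655%, 1.32% and 3.61% of the cells that passed the filter, so it did not work in small intestine replicate 2. Doublets were kept, and the top 5% of scores were removed as an alternative chosen after seeing the data, as were the limits on Col1a2 share, Pecam1 or Cdh5, and the thinning to 2500 UMIs. The tests were checked on simulated data.

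Genes were named by a fixed rule: the 12 largest and 8 smallest called log2 fold changes with 1 direction in all libraries (0.5 UMI added to each count, through which Serpina3f passed) and at least 30 UMIs in the higher group, the 5 largest and 5 smallest for the difference between intestines, the 4 most abundant of each list, and the core interferon signalling genes. Others named were chosen after their values were seen. A result of the receptor and signalling list is not reported here. Members and lists were chosen with earlier results of these data known. Gene positions are from GENCODE vM21, which matched 28339 of the gene IDs.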

Additional observations from a re-analysis of the deposited data

Results flagged for a closer look

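The step from none-cells to members differed between colon and small intestine in a test of that difference for 21 named genes, given here as log2 differences, colon minus small intestine. Of the interferon lists, 8 genes had a larger step in colon, among them 2 of 40 type I genes, 2 of 18 GTPases and 0 of 23 class I genes tested: Slfn5 1.74, Iigp1 1.69, Isg15 1.43, Ifih1 1.27, Irf7 1.20, Irgm1 1.12, Irf1 1.09 and Socs1 1.02. Genes known from endothelium also did so, with Kdr at 12.59, Slco2a1 at 7.63, Flt1 at 4.91 and Esam at 2.81, as did the smooth muscle gene Cnn1 at 10.51, the pericyte gene Rgs5 at 1.79 and Grrp1 at 14.42. Values of Grrp1, Kdr, Cnn1, Slco2a1 and Esam come from genes with libraries at 0 UMIs and depend on the prior count. Cd24a stood at 2.71, Igfbp5 at 1.47 and the chaperone gene Dnajb1 at 1.13. Steps were smaller in colon for Rbms3 at -1.78, F3 at -1.28 and Cnn2 at -1.13.

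Pecam1 or Cdh5 was detected in 0, 2, 2 and 4 members, and without these cells Iigp1 and Isg15 were still called (1.25 and 1.43), while Kdr, Grrp1 and Slco2a1 did not reach the count minimum for the test. The cause of the differences was not tested.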

How the results depend on the processing

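Members differed from none-cells in 186 genes (the 6 rule genes counted), and in 108 with Col1a2 at or above the none-cell median, 63 within the PDGFRa-high count, 33 with no library block, and 181 to 211 without 1 library. Of 995 values of 63 named genes under 16 other settings, 915 kept their direction and call, 62 lost the call, 18 gained it and 0 turned. For the difference between intestines, 140 of 242 values of 21 named genes under 12 other settings kept theirs, 97 lost the call and 5 turned. Without 1 library 33 of 84 values of that test kept theirs, 50 lost the call and 1 turned. Colonic against small intestinal members gave 0 calls, but 197 with no low-count filter, 36 with DESeq2, 47 with the Col1a2 limit and 63 to 92 without 1 library. None-cells gave 53, and 260 with no filter, 149 thinned to 1000 UMIs and 0 to 100 without 1 library. The difference between intestines gave 50, and 10 with DESeq2, 3 with at least 2 of the 6 genes, 19 without cells of other-type markers, 29 without the top 5% of doublet scores, 3 with the Col1a2 limit, 20 without Pecam1 or Cdh5, and 2 (without small intestine replicate 1) to 69 without 1 library. There Cd24a turned to -0.79 and -1.37 without other-type cells and without Pecam1 or Cdh5, and with the Col1a2 limit Cnn1 turned to -2.25, Dnajb1 to -0.086 and F3 to 1.24. Without 1 library Cnn1 ran from -1.01 to 11.32. With the replicate block the 3 counts were 141, 805 and 44; same-numbered libraries correlated at 0.576 in members and 0.768 in none-cells, and they share a software version, but the labels state no pairing and there are 2 pairs. Shares of members were 0%, 0.129%, 0.109% and 0.0260% thinned to 1000 UMIs, 0.425%, 0.579%, 0.153% and 0.108% thinned to 2500, 8.68%, 3.46%, 4.33% and 2.02% with at least 2 genes, and 0.524%, 0.112%, 0.0466% and 0.0240% with at least 4. The log2 ratio of type I genes, Ifit-led over Cxcl9-led, was -0.36 with at least 4 genes and turned to 0.18 when thinned to 1000, where that of GTPases was -0.49. The causes were not tested. Fits with at least 4 genes or thinned members, and the fit of Ifit-led against Cxcl9-led members with 10 cells, left too few cells and were not run.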
